A study of Mus musculus with 2 samples.

Results

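Polyamine metabolism was followed through 10 mouse genes: 4 that make polyamines (Srm, Sms, Odc1 and Amd1), 3 that break them down (Sat1, Smox and Paox) and 3 of antizyme control (Oaz1, Oaz2 and Azin1). Members were found by the gene name that the array gives its probes. Of 34650 gene names that the array itself gives, 9 were members, with 21 probes, and no probe carried the name Amd1. The group was picked from earlier results of these same arrays, in which Srm was lower with FGF23. The ratios below are therefore a description of the members, with no test in support of them.

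RNA came from mIMCD3, an epithelial line of the mouse inner medullary collecting duct obtained from a cell bank and grown in serum-containing medium. The cells were stimulated with FGF23 (fibroblast growth factor 23, a hormone from bone that acts on the kidney) at 10 ng/mL for 4 h, or were left unstimulated. No genotype, transgene or other agent is named in the labels, and an established line shows the cells of 1 origin only. Both RNAs were hybridised together on each of 2 Agilent arrays: array 1 had FGF23 RNA in Cy3 and unstimulated RNA in Cy5, and array 2 had the dyes exchanged. Separate cultures for the arrays are not named in the labels, so any spread between them, and any p-value that rests on it, may be technical.

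Polyamines (putrescine, spermidine and spermine) are small positively charged molecules that bind RNA, DNA and ATP and are needed for growth and translation. Ornithine decarboxylase (Odc1) makes putrescine. Spermidine synthase (Srm) and spermine synthase (Sms) then add aminopropyl groups, which the S-adenosylmethionine decarboxylase Amd1 provides. Breakdown runs through acetylation by Sat1 and oxidation by Paox, or through direct oxidation of spermine by Smox. Antizymes (Oaz1 and Oaz2) bind ornithine decarboxylase and send it to the proteasome, and the antizyme inhibitor Azin1 releases it. Several synthesis genes, Odc1 first among them, are textbook targets of the transcription factor MYC, which binds the E-box CACGTG. Much of this control acts on translation and protein stability, which an RNA array does not measure.

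The probes are 60 bases long. Srm had a pair of probes that shared no run of more than 6 bases, so they read different stretches of the RNA. Probe A_51_P300709 lies on chromosome 4 at chr4:147968433-147968492 and A_55_P2002376 at chr4:147968254-147968313 (mm9, plus strand). The first 30 bases of each, 5′ to 3′, are shown since Srm had the lowest ratios of the group.
Srm A_51_P300709: gacaccacccgagacctcaatcggattgga
Srm A_55_P2002376: gaaatactataactcggacatgcaccgtgc

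Other probes of a gene were close to being the same oligo. Of 17 pairs of probes for the same gene, 5 shared a run of 20 bases or more. The last 30 bases of 3 such pairs follow, with the stretch that both probes hold in capitals. They are shown because likeness between these probes is no independent measurement.
Odc1 A_55_P1995173: GTGAAAATAAAGTATCTTGAAATAACTGGG
Odc1 A_55_P2035102: AATAAAGTATCTTGAAATAACTGGGaaaaa
Paox A_55_P1969181: AGTGTTGTACGCATAAAGCAGTTAACATTG
Paox A_55_P2019751: GTACGCATAAAGCAGTTAACATTGaaaaaa
Oaz1 A_55_P2035454: CAAATCCAATAAAGTGATCTCGTTcattgg
Oaz1 A_55_P2171047: CAAATCCAATAAAGTGATCTCGTTaaaaaa
The shared runs were 46 bases for the Odc1 pair and 54 bases each for the Paox and Oaz1 pairs. Odc1 probe A_55_P1982818 shared 22 bases with both of the printed Odc1 probes. The probes of Sms, Smox, Oaz2 and Azin1 shared at most 8 bases with each other.

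Each array had 59305 spots that were not controls, and 48.2% to 55.2% of them were well above background, depending on array and dye. No spot was saturated. The number of arrays limits the precision. Of 14 markers of collecting duct epithelium, 13 were well above background, Cdh1, Krt8, Pax8 and Aqp2 among them, and the aquaporin Aqp3 was not. For markers of other cell types this held for 2 of 5 endothelial, 3 of 6 macrophage, 1 of 6 fibroblast and 4 of 6 proximal tubule genes, and no marker passed the test described below. Being above background did not mean being bright. Mean log2 brightness was 15.73 for Krt8, 12.35 for Pax8, 11.16 for Cdh1 and 7.52 for Aqp2. Macrophage genes Itgam (11.90) and Csf1r (11.45) and endothelial Kdr (11.34) were above Cdh1. The other detected markers of those cell types were at most 8.40 (Cd68). Collecting duct markers Gata3 (7.74), Aqp2, Scnn1a (7.19), Pax2 (6.84) and Gata2 (6.45) were dimmer than Cd68 too. The other detected collecting duct markers were brighter than it. Brightness depends on the probe, so these values do not rank the genes by RNA level. All 21 member probes were well above background in both dyes on both arrays. Their mean signals before correction ranged from 73.8 for a dim Azin1 probe to 89513 for Oaz1.

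**Figure D1:**
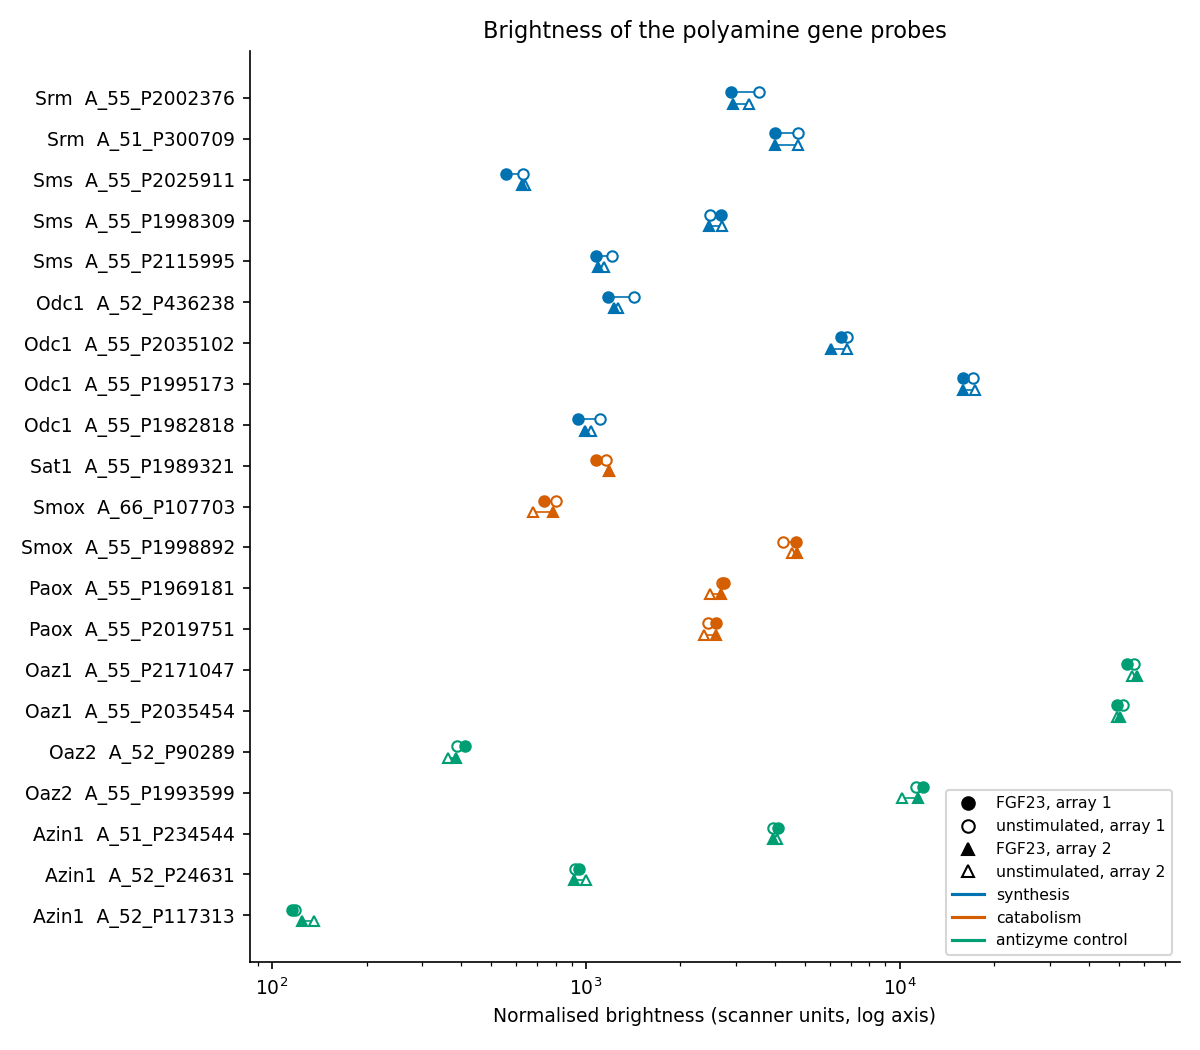
Normalised brightness (scanner units, log axis) of the 21 polyamine probes in FGF23 (filled) and unstimulated (open) RNA on array 1 (circles) and array 2 (triangles), coloured by role. Filled symbols lie left of open ones on both arrays for both Srm and all 4 Odc1 probes, and right of them for both Paox and both Oaz2 probes. Brightness depends on the probe, so levels are comparable along a line and not between lines.

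Ratios are given as log2 of FGF23 over unstimulated after loess normalisation within each array, and as mean ± SD of both arrays (n = 2). Normalised brightness was in addition scaled to the same distribution on both arrays (quantile normalisation of average intensity), which leaves the ratios unchanged. A gene stands for its brightest probe. Over all 19229 genes above background the median mean log2 ratio was -0.00064, and single-array ratios had an SD of 0.145 and 0.133. In limma's test with Benjamini-Hochberg adjustment over these genes, 0.0468% were past the threshold of 0.05 (9 genes, all higher). No member was among them: 0 of 9, each with an adjusted p of 1. At an unadjusted p under 0.05 limma gave 500 genes higher and 251 lower. With no change in any gene, a share of 0.05 of the 19229 would be expected there. The threshold was also missed by every member in each other processing, where the lowest adjusted p of a member ranged from 0.488 to 1 in limma.

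Srm, the spermidine synthase, had the lowest ratio of the group. Its probe A_51_P300709 had a normalised brightness of 4005 with FGF23 and 4735 without on array 1. On array 2 it read 4013 with FGF23 and 4721 without. Both FGF23 values were thus below both unstimulated values, with no overlap. Such a comparison across arrays rests on the scaling between them, here and for every probe below. The share of all genes separated in this way was not counted. Such a separation is therefore description only, here and for every probe below, and adds nothing to the ratios. The log2 ratios were -0.24 and -0.23, a mean of -0.24 ± 0.0052, or 0.848 of the unstimulated level (a change of -15.2%).

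The second Srm probe, A_55_P2002376, read 2900 against 3556 on array 1 and 2949 against 3316 on array 2, FGF23 first. Here too the groups did not overlap, although the ratios were farther apart: -0.29 and -0.17, mean -0.23 ± 0.088. The means of the Srm probes thus differed by less than the spread of the second probe between arrays. The limma test draws each gene's spread towards one shared by all genes, so the small SD of the first probe carries little weight in its p.

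The dye swap can be read from the uncorrected signals as well. On array 1, where unstimulated RNA was red, the Cy5 signal of A_51_P300709 was 6744 and its Cy3 signal 2671, a ratio of 2.52. On array 2, where FGF23 RNA was red, the signals were 6010 and 3244, a ratio of 1.85. Over the brightest probes of all genes above background, the median of this uncorrected red over green ratio was 1.98 on array 1 and 2.04 on array 2. The Srm probe was above that median when unstimulated RNA was red and below it when FGF23 RNA was. The second Srm probe did likewise, with 2.59 and 1.92. These are the same signals that the ratios are made from and no second measurement. The median also takes no account of brightness. For Odc1 probe A_55_P1995173 the uncorrected ratios of 2.43 and 2.09 were both above it, while its normalised log2 ratios were below 0 on both arrays.

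In the ranking of all genes, 97 of 19229 (0.504%) had a lower mean log2 ratio than Srm, and 32 were lower than Srm on both arrays. This rank describes how Srm was picked. Its size was modest: the lowest mean of any gene was -0.70 and the highest 1.05.

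Odc1, the decarboxylase that starts the pathway, was measured by 4 probes. The brightest, A_55_P1995173, read 15934 with FGF23 and 17130 without on array 1, and 15862 and 17348 on array 2. The groups did not overlap, which is description only as above. The log2 ratios were -0.10 and -0.13 (mean -0.12 ± 0.018, a change of -7.78%). A_55_P2035102, which shares most of its sequence with it, had ratios of -0.055 and -0.17.

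The other Odc1 probes were dimmer and their ratios were farther from 0 on array 1. A_52_P436238, which shares no long run with any other, had -0.28 on array 1 and -0.043 on array 2 (mean -0.16 ± 0.17). A_55_P1982818 had -0.23 and -0.065. All 4 Odc1 probes were below 0 on both arrays, with means from -0.16 to -0.11. For the 2 dimmer ones the SD was of the order of the mean.

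Sms, the spermine synthase, differed between its probes. The brightest, A_55_P1998309, read 2700 with FGF23 and 2485 without on array 1, and 2469 and 2708 on array 2. Its ratios of 0.12 and -0.13 had opposite signs, so each condition was higher on the array where it was labelled with Cy3, and the mean was -0.0066 ± 0.18. A_55_P2025911 had -0.19 and -0.030 (mean -0.11), and A_55_P2115995 had -0.17 and -0.064 (mean -0.12). All 3 Sms probes were thus below 0 on array 2, and on array 1 the sign depended on the probe.

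The array gives the name Amd2 to 3 probes, and 2 of them list the transcript that RefSeq names Amd1 among their accessions. By the naming rule they are not members. For the 2 that list both, signal from Amd1 and Amd2 transcripts cannot be told apart, and for A_55_P2121252 this was not tested. They lie on chromosome 10 between 40007295 and 40009195 (mm9, minus strand). A_55_P2014506, the brightest, had ratios of -0.12 and -0.031 (mean -0.074 ± 0.060). A_55_P2014511 had -0.012 and -0.32, and A_55_P2121252 had -0.014 and -0.24. All 3 were below 0 on both arrays, but for the dimmer ones nearly all of the difference was on array 2.

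Counted by probe, 8 of the 9 synthesis probes of Srm, Sms and Odc1 were below 0 on both arrays, and 1 of Sms had opposite signs. Of all 26953 probes above background, 23.5% were below 0 on both arrays and 23.4% above. Since 3 of the Odc1 probes share sequence and Srm was picked for its value, the 8 are not independent of each other or of the choice. Probes of the same gene also read the same RNA on the same arrays, so the 9 stand for 3 genes and are not replicates.

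**Figure D2:**
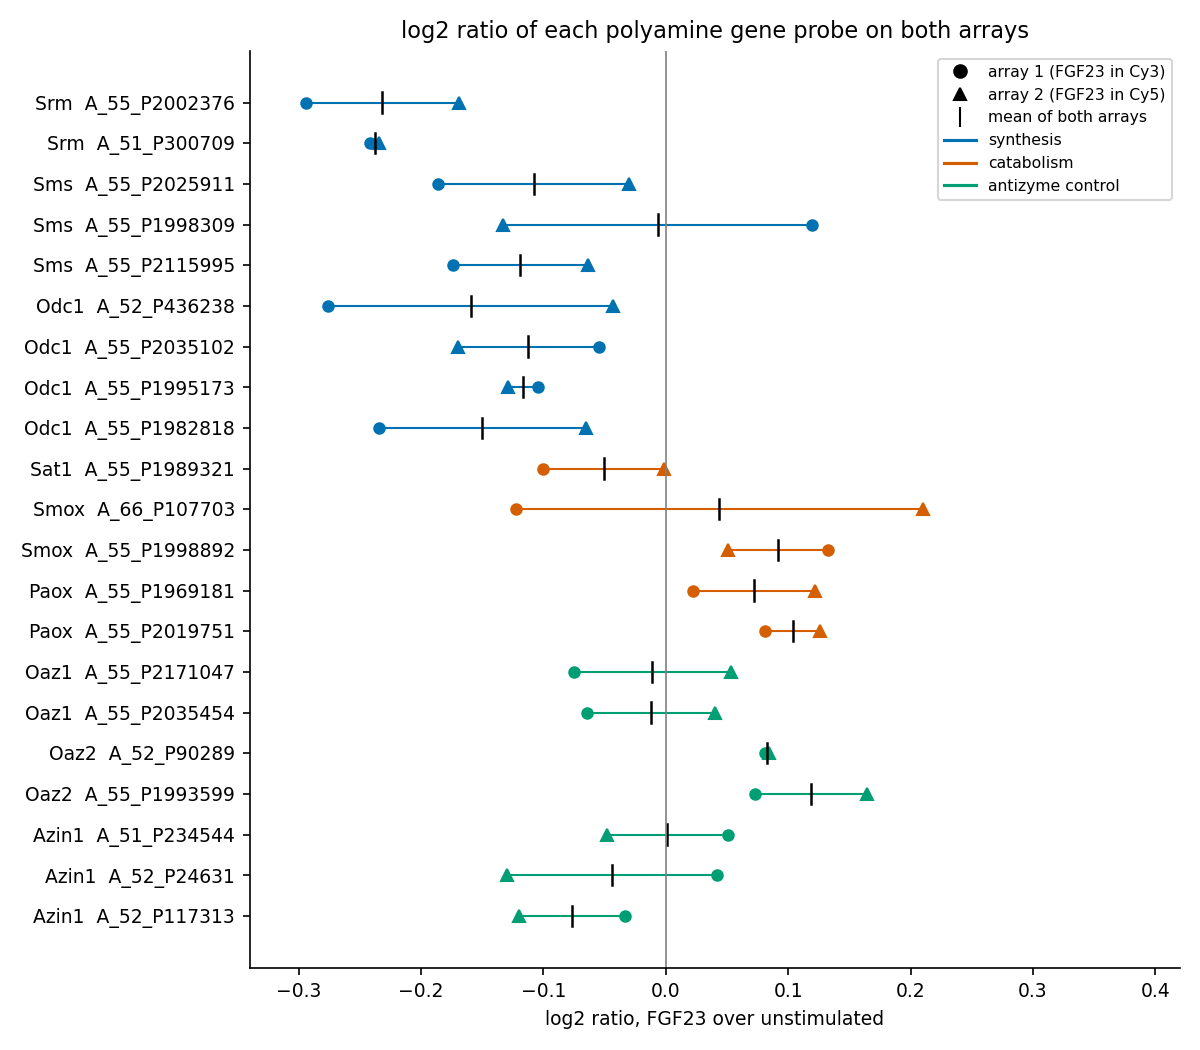
The log2 ratio of FGF23 over unstimulated RNA for each of the 21 probes on array 1 (circles) and array 2 (triangles), with the mean as a black tick and the roles in colour. Of the synthesis probes 8 of 9 have both symbols left of 0, and of the catabolism probes 3 of 5 have both right of 0. The line between the symbols is the spread between the arrays.

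Among the catabolic genes no probe had a mean ratio as far from 0 as those of the Srm probes. Smox, the spermine oxidase, read 4666 with FGF23 and 4257 without on array 1, and 4697 and 4533 on array 2 (A_55_P1998892). Both FGF23 values were above both unstimulated values, again as description only. The log2 ratios were 0.13 and 0.051 (mean 0.092 ± 0.057, 6.57% higher). Its other, dimmer probe A_66_P107703 had ratios of -0.12 and 0.21, so that the Smox probes did not share a sign on array 1.

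Paox, which oxidises acetylated polyamines, read 2753 with FGF23 and 2710 without on array 1, and 2702 and 2483 on array 2 (A_55_P1969181). The FGF23 value of array 2 lay below the unstimulated value of array 1, so the groups overlapped. The log2 ratios were 0.022 and 0.12, with a mean of 0.072 ± 0.070. The near-identical probe A_55_P2019751 had 0.081 and 0.13 (mean 0.10 ± 0.032).

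Sat1, the acetyltransferase that starts polyamine breakdown, had 1 probe. It read 1078 with FGF23 and 1156 without on array 1, and 1180 and 1182 on array 2. Its ratios were -0.10 and -0.0012 (mean -0.051 ± 0.070). Sat1 was below 0 on both arrays, but on array 2 the conditions could hardly be told apart.

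Of the antizymes, Oaz1 was very bright and its ratios changed sign with the dye. A_55_P2171047 read 53017 with FGF23 and 55848 without on array 1, and 57142 and 55080 on array 2. The ratios were -0.075 and 0.053 (mean -0.011 ± 0.091), and its overlapping partner A_55_P2035454 had -0.064 and 0.040. Whichever RNA was labelled with Cy5 read higher, and the mean over the dye swap was near 0.

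Oaz2, the other antizyme, was higher with FGF23 for both of its probes. A_55_P1993599 read 11814 with FGF23 and 11230 without on array 1, and 11415 and 10185 on array 2. The groups did not overlap, again as description only. The log2 ratios were 0.073 and 0.16 (mean 0.12 ± 0.065, 8.58% higher). A_52_P90289 read 410 against 388 and 386 against 364, FGF23 first.

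That second Oaz2 probe gave log2 ratios of 0.081 and 0.084 (mean 0.083 ± 0.0019), but its groups touched: the FGF23 value of array 2 was just below the unstimulated value of array 1. It spans 65535779 to 65536685 on chromosome 9 (mm9), far longer than the probe, so it reads across a spliced-out stretch. The 2 Oaz2 probes share at most 5 bases and had like signs on both arrays.

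Azin1, which frees ornithine decarboxylase from antizyme, had 3 probes, all below 0 on array 2 and of mixed sign on array 1. A_51_P234544 read 4095 with FGF23 and 3954 without on array 1, and 3935 and 4068 on array 2. Its mean log2 ratio was 0.0013 ± 0.070. A_52_P24631 had ratios of 0.042 and -0.13 (mean -0.044), and A_52_P117313, the dim probe, had -0.033 and -0.12 (mean -0.077). The sign of the Azin1 mean changed with the processing, and no direction is given.

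Set by role at the level of genes, the 3 measured synthesis genes had a median log2 ratio of -0.12 (-0.10 on array 1 and -0.13 on array 2). Of the 3, 2 were below 0 on both arrays (Srm and Odc1). Over all genes 22.3% were below 0 on both arrays and 23.9% above. The 3 catabolic genes had a median of 0.072, with 2 above 0 on both arrays (Smox and Paox) and 1 below (Sat1). The 3 genes of antizyme control had a median of 0.0013, with 1 above 0 on both arrays (Oaz2) and 2 of opposite signs.

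The median of the synthesis genes minus that of the catabolic genes was -0.13 on array 1 and -0.18 on array 2, a mean of -0.16 ± 0.041. This difference rests on 3 genes a side, with Srm among them by choice, and was not tested. Over all 9 measured members the median was -0.0066. There were 3 below 0 on both arrays and 3 above (33.3% each, against 22.3% and 23.9% of all genes), and 3 had opposite signs.

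**Figure D3:**
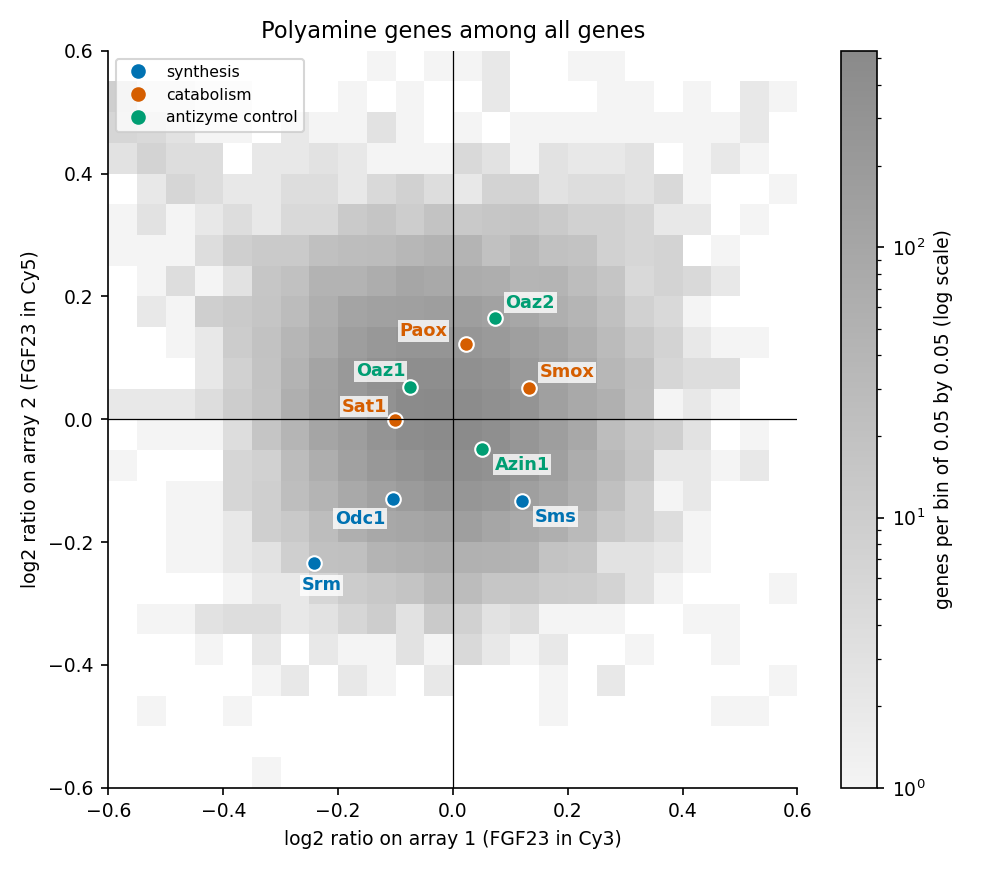
The log2 ratio on array 1 (x axis) against that on array 2 (y axis) for all genes above background, as grey bins shaded by the number of genes on a log scale, with the 9 members as coloured points. Srm lies at the lower left edge of the cloud with -0.24 and -0.23, and the other 8 members lie within it. The axes end at 0.6, beyond which 105 genes are not drawn.

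Over 7 ways of making the ratios, of which the 2 other filters on dim probes leave member values as they were, the mean for Srm ranged from -0.25 to -0.23, and that for Odc1 from -0.14 to -0.11. With median centring in place of loess, only the means can be read. There each array was centred on the median over all non-control spots, dim ones included, which put 18210 of the 19229 genes below 0 on array 1 and 18152 above 0 on array 2. Srm read -0.96 and 0.45 under that centring, with a mean of -0.25. When a gene was given as the mean of its probes, Sms had -0.080 and -0.075, and 4 members were below 0 on both arrays.

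The wider pathway was read through 35 further genes for the supply of ornithine and S-adenosylmethionine, methionine salvage, hypusine formation and polyamine transport. Of these, 25 were above background and none passed the limma test, where 0.0468% of all genes did. On both arrays 5 were below 0 (20%) and 8 above (32%), against 22.3% and 23.9% of all genes. Their median log2 ratio was -0.014.

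The pathway gene farthest from 0 was Eif5a, the translation factor whose hypusine is built from spermidine. Its log2 ratios were -0.15 and -0.24, with a mean of -0.20 ± 0.062 that did not pass. Deoxyhypusine synthase (Dhps), which attaches the spermidine part to it, had opposite signs, 0.063 and -0.12. Mat2a, which makes S-adenosylmethionine, was at 0.014 on array 1 and -0.34 on array 2. Its mean of -0.16 ± 0.25 came from array 2 alone.

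On the positive side were Apip, an enzyme of methionine salvage (0.21 and 0.047, mean 0.13 ± 0.11), and Sat2, a relative of Sat1 (0.13 and 0.10, mean 0.12 ± 0.020). Mtap, which clears the methylthioadenosine left by Srm and Sms, had -0.20 and 0.091. Arg2, an arginase that yields ornithine, was near 0 on both arrays (0.035 and 0.025). None of these passed the test, and Mtap and Mat2a changed sign between the arrays.

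MYC and its partners were read as a list of 13 genes, of which 11 were above background and none passed the limma test. Myc itself had log2 ratios of -0.081 and -0.28 (mean -0.18 ± 0.14), the only one of the 11 below 0 on both arrays (9.09%, against 22.3% of all genes). Mnt and Mxd4, which bind the same partner Max and repress, had 0.18 and 0.17 (mean 0.17 ± 0.0047) and 0.11 and 0.20 (mean 0.15 ± 0.063). Mlxipl, a glucose-responsive relative, had -0.45 and 0.088, and Max itself 0.035 and -0.010.

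In all, 3 of the 11 were above 0 on both arrays, Mnt, Mxd4 and Mxd1, which is 27.3% against 23.9% of all genes. The list's median log2 ratio was -0.0049. Whether Myc levels bear on Srm or Odc1 was not tested.

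**Figure D4:**
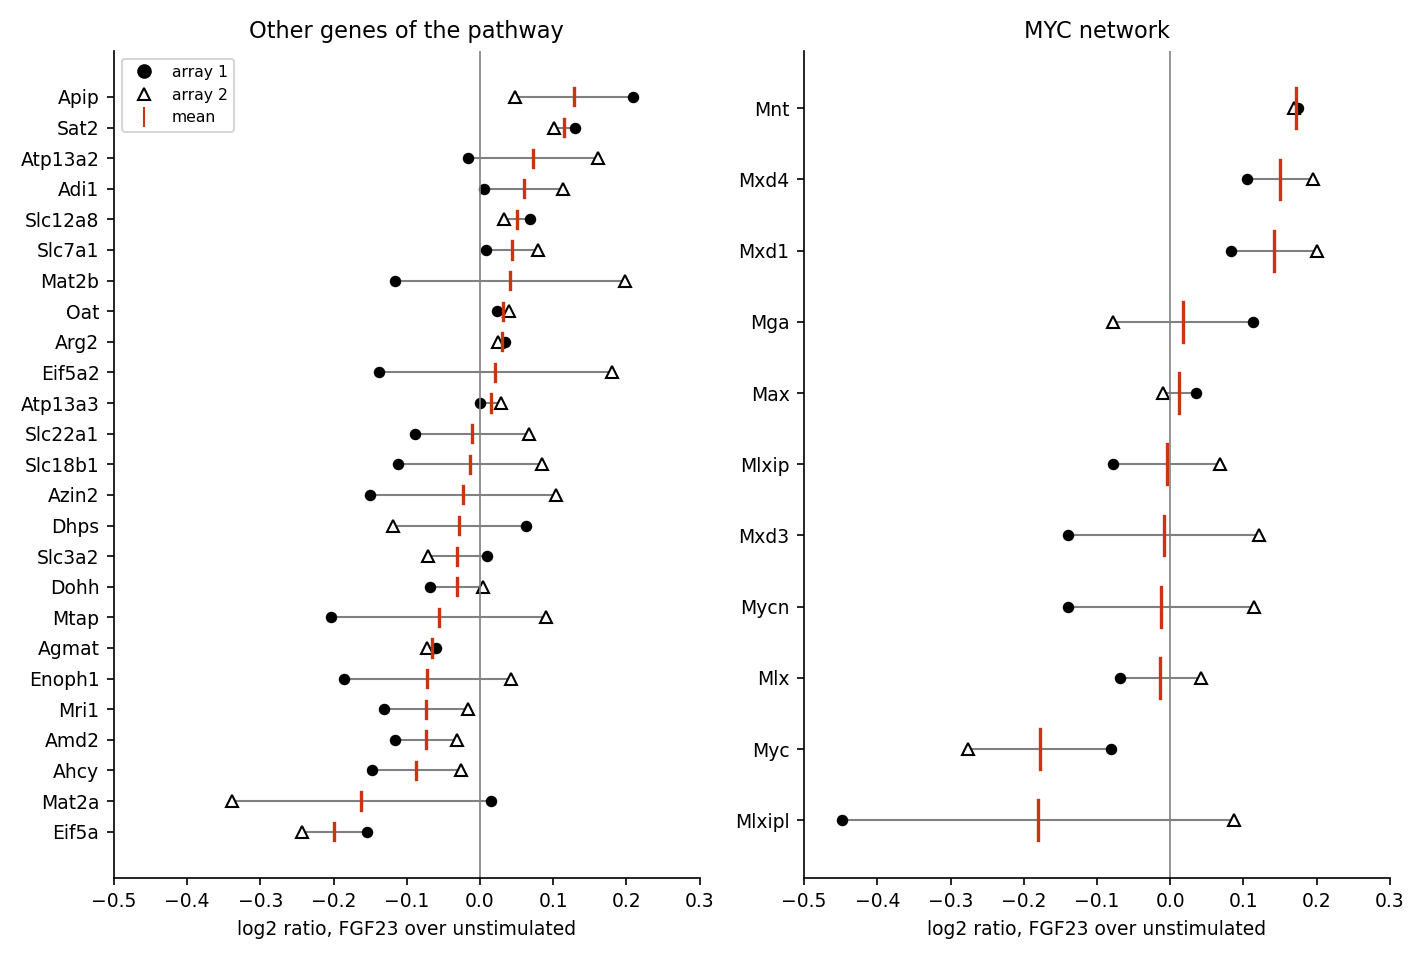
The log2 ratio of FGF23 over unstimulated RNA for the 25 other pathway genes and the 11 MYC network genes above background, on array 1 (filled circles) and array 2 (open triangles), with the mean as a red tick and genes ordered by mean. Eif5a has the lowest mean of the pathway genes (-0.20), and Myc, with a mean of -0.18, is the only network gene with both symbols left of 0.

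The promoters were searched for the E-box CACGTG, which reads the same on both strands. RefSeq sequences from 250 bases before to 50 after the start (GRCm38.p6) matched 8 of the 10 genes, with 10 promoters. Srm and Azin1 were not matched. The motif was in 1 of the 10, a start of Sms, and in 7.15% of 32851 promoters of that length. The 60 bases around it, at chrX:157492451-157492510 on the minus strand, are shown with the motif in capitals.
Sms promoter: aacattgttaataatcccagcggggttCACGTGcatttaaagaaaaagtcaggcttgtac
The motif begins 196 bases before that start. A match is a run of letters and not a measured binding site. The promoter of Odc1 had none in this window, and sequence outside the window was not searched for any gene.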

How the data were processed

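Total RNA of mIMCD3 cells was measured on 2 dye-swapped Agilent arrays. Per the file headers, Feature Extraction 11.5.1.1 gave a mean and a processed intensity per spot and dye, a dye-normalized log10 ratio of Cy5 over Cy3 and its p-value, which was not used. Here mean intensities were background-corrected (normexp, offset 50) and loess-normalized within arrays with controls at weight 0 (limma 3.58.1, R 4.3.3). For the printed brightness values only, average intensities were then quantile-normalized between arrays (limma's Aquantile). Outlier spots were left out, spots of a probe averaged and log2 ratios turned to FGF23 over unstimulated by the labels' dyes. A probe was kept if well above background on both arrays in one condition (26953 of 55681 probes, 19229 genes). Symbols were updated through RefSeq for 28026 probes. Ratios were tested in limma (lmFit, eBayes) with 1 residual degree of freedom and 11.9 prior ones. The fit was also run on simulated data, with noise drawn from the fitted spread and no dye effect. The changes put in there were larger than any member's ratio, so that run does not bear on the members. Both arrays lie on 1 slide with 1 scan time, and each holds both conditions, so neither separates them.

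Per the file headers, spike-in log ratios followed their expected values with slopes of 0.851 and 0.852, below the slope of exact recovery. Probe positions are on mm9, and exon and UTR positions were not analysed here. Members, lists, tests and alternatives were chosen with earlier results of these data known. Of the pathway and MYC lists, the genes named were the 4 with the largest mean ratio in either direction, as none passed, plus Myc, Max, Arg2, Mtap, Eif5a, Dhps and Amd2. Mxd1 was named after its values were seen. Alternatives were the scanner's processed log ratio, offset 0, median centring, 2 other filters on dim probes, the mean of a gene's probes, an intensity trend with robust prior, and either array alone.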

Additional observations from a re-analysis of the deposited data

How the results depend on the processing

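No member passed the limma test under any alternative. The number of all genes past it was 9 as reported, 0 with the scanner's processed log ratio, 5 with offset 0, 0 with median centring, 17 (16 higher, 1 lower) with the mean of a gene's probes and 79 (59 higher, 20 lower) with the intensity trend and robust prior. The cause was not tested. Genes below and above 0 on both arrays numbered 643 and 584 with median centring, a count fixed by the offset that puts 18210 genes below 0 on array 1 and 18152 above on array 2. They numbered 7953 and 8331 with no filter on dim probes, which tests 34763 genes by updated symbol. The synthesis minus catabolism difference was -0.22 with median centring and -0.20 with the mean of a gene's probes, and -0.18 to -0.13 on either array alone. The median of the measured members was -0.040 with the mean of a gene's probes and ranged from -0.0012 to 0.022 on either array alone. The cause was not tested.

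Member means that moved by over 1 SD between arrays were Srm (-0.25) and Odc1 (-0.14) with median centring and Odc1 (-0.13) with the mean of its probes. The filters on dim probes left the members' values as they were. The mean of Azin1 changed sign under 4 processing alternatives. One array alone leaves no residual degree of freedom and no count over both arrays, so no test or such count was made. The ratio within each array already pairs the conditions, so no further block was fitted. Depth, as signal over background, limits the dim Azin1 probe most.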
